A study of Mus musculus with 20 samples.

Results

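The core circadian clock genes described here are 10 genes picked by symbol from the deposited liver count table: the activators *Arntl* (also called *Bmal1*), *Npas2* and *Clock*, the repressors *Per1*, *Per2*, *Per3* and *Cry1*, the nuclear receptors *Nr1d1* and *Nr1d2* (REV-ERBα and REV-ERBβ), and the output factor *Dbp*. They are 10 of the 54532 genes in the table. All 10 had counts, and 9 of them were among the 12289 genes that passed the filter on low values and were tested, with *Npas2* below it.

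In mammalian cells, BMAL1 pairs with CLOCK or its paralog NPAS2 and switches on the period and cryptochrome genes, whose proteins then return to the nucleus and silence that pair. The same pair drives *Nr1d1*, *Nr1d2* and *Dbp*. The REV-ERB proteins in turn repress *Arntl* and *Npas2*, which places *Arntl* and its targets at opposite phases of the daily cycle, and the liver clock is known to be set largely by feeding time.

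Livers came from 20 male C57BL/6J mice, with 1 library per mouse and 5 mice per group. All mice ate a high-fat diet (HFD) over 12 weeks and became obese, then had Roux-en-Y gastric bypass (RYGB, which reroutes food past most of the stomach and the upper small intestine) or sham surgery, and afterwards ate chow or HFD for 8 weeks. The groups are therefore Sham Chow (obese mice moved back to chow), Sham HFD (mice kept obese), RYGB Chow and RYGB HFD. No transgene or deletion is named for any group. All mice had been through HFD feeding and an operation, so none of the groups is a never-obese or unoperated control. Body weight differed between groups in the study, and the mice were described as fasted. The time of day at which each liver was taken is not given in the sources used here, so a difference in sampling time and a difference in clock state cannot be told apart.

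Total counts ran from 14604854 to 22537498 per mouse, with scaling factors between 0.916 and 1.13. Mice are named by their group and replicate number. Levels are given as CPM (read counts scaled to a common library size, after TMM adjustment), differences as log2 fold changes, and an adjusted p as that of edgeR's quasi-likelihood test after Benjamini-Hochberg adjustment over all 12289 tested genes unless another test is named. The hepatocyte markers (6 of 6 tested) summed to between 66700 and 119000 CPM in each mouse, and the adipocyte markers *Adipoq* and *Plin1* together never passed 3.13 CPM. In whole liver, fewer cells of a type and less RNA per cell cannot be told apart.

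Between the groups, *Nr1d1* alone of the 9 tested clock genes passed the test, and only in RYGB HFD vs. Sham HFD, where it was 1.34-fold higher in RYGB HFD. With the group means removed, several of the genes varied together over the 20 mice: *Npas2* and *Clock* rose with *Arntl*, and *Per2*, *Per3* and *Dbp* fell. The *Dbp* to *Arntl* ratio ran from 3.83 to 210 in RYGB HFD, a span that rests on mouse 5, since the other 4 mice ran from 26.6 to 210.

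**Figure D1:**
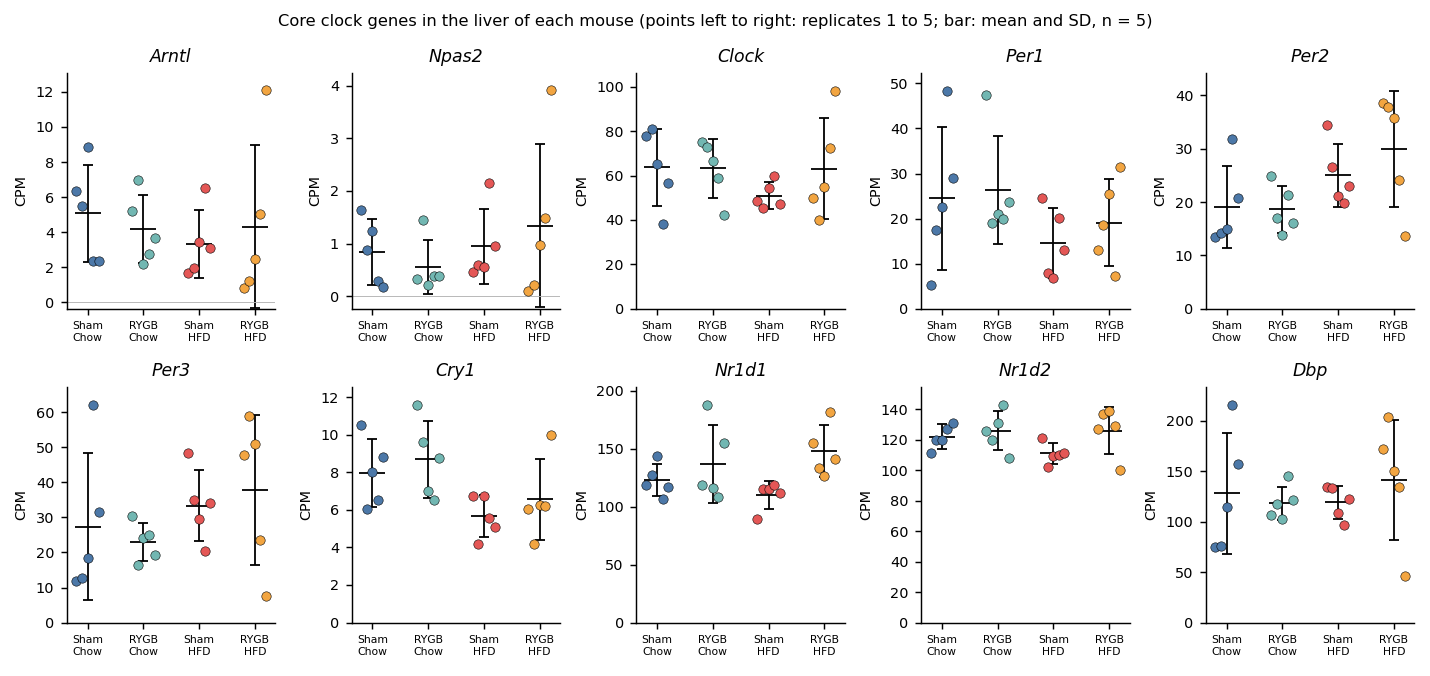
Level of each core clock gene in the liver of each mouse, in CPM, by group (5 mice per group, points left to right are replicates 1 to 5, bars are mean and SD). In the 4 contrasts, groups overlap for every gene except *Nr1d1* in RYGB HFD against Sham HFD, and RYGB HFD mouse 5 holds the highest *Arntl*, *Npas2* and *Clock* and the lowest *Per3* and *Dbp* of all 20 mice.

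Per kilobase of exon, the 10 genes spanned a wide range of levels. Over all 20 mice, *Dbp* stood at 42.3 ± 13.7 CPM per kb (mean ± SD, n = 20) and *Nr1d1* at 42.1 ± 8.14, which did not differ beyond their spread. *Nr1d2* followed at 22.4 ± 2.28 CPM per kb. *Clock* (4.39 ± 1.15), *Per2* (3.96 ± 1.45), *Per1* (3.75 ± 2.09) and *Per3* (3.16 ± 1.65) lay within each other's spread on the same per-length scale. *Cry1* stood at 2.16 ± 0.619 CPM per kb, *Arntl* at 0.561 ± 0.379 and *Npas2* at 0.193 ± 0.19, so *Arntl* and *Npas2* were the scarcest transcripts of the set in these livers.

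Of the activators, *Arntl* (ENSMUSG00000055116, mm10 chromosome 7 from 113207465 to 113314126, plus strand) encodes BMAL1, the factor without which the clock does not run. In mice 1 to 5 it stood at 6.33, 5.49, 8.83, 2.36 and 2.36 CPM in Sham Chow, and at 5.23, 6.95, 2.20, 2.74 and 3.68 in RYGB Chow. In Sham HFD the values were 1.68, 1.94, 3.42, 6.53 and 3.11 CPM, and in RYGB HFD 0.816, 1.20, 2.48, 5.03 and 12.1. The groups overlap throughout, and RYGB HFD holds both the lowest and the highest *Arntl* of all 20 mice, 14.8-fold apart and resting on 15 and 182 counts. The group means were 5.07 ± 2.77, 4.16 ± 1.94, 3.34 ± 1.93 and 4.32 ± 4.65 CPM (SD, n = 5 each) in the same order, and no contrast passed the test, the widest being Sham HFD vs. Sham Chow at -0.63 on the log2 scale (standard error 0.57, adjusted p = 0.449).

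*Npas2* (ENSMUSG00000026077, chromosome 1 from 39193731 to 39363236, plus strand), which encodes the CLOCK paralog that can take its place beside BMAL1, reached 2 CPM in only 2 mice and so stayed below the filter. Its values were 1.64, 0.88, 1.25, 0.286 and 0.182 CPM in Sham Chow mice 1 to 5, and 0.327, 1.45, 0.22, 0.391 and 0.396 in RYGB Chow. In Sham HFD it stood at 0.464, 0.601, 0.549, 2.16 and 0.965 CPM, and in RYGB HFD at 0.109, 0.208, 0.98, 1.48 and 3.92. As with *Arntl*, the extremes are RYGB HFD mouse 1 (2 counts) and RYGB HFD mouse 5 (59 counts), 36.0-fold apart. The groups overlap in each of the 4 contrasts, with exact permutation p between 0.413 and 0.897 (two-sided, 5 mice against 5).

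*Clock* (ENSMUSG00000029238, chromosome 5 from 76209868 to 76304792, minus strand) was the most abundant activator per length. Sham Chow mice 1 to 5 held 77.8, 80.9, 65.0, 38.1 and 56.5 CPM, and RYGB Chow mice 75.3, 72.9, 66.7, 59.1 and 42.2. Sham HFD mice held 48.4, 45.2, 54.2, 60.0 and 47.4 CPM, and RYGB HFD mice 49.7, 40.1, 54.9, 72.5 and 98.3. Sham HFD was the tightest group, spanning 1.33-fold, and RYGB HFD the widest, spanning 2.45-fold. None of the contrasts passed, and RYGB HFD vs. Sham HFD gave 0.30 on the log2 scale (standard error 0.21, adjusted p = 0.361).

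Among the repressors, *Per1* (ENSMUSG00000020893, chromosome 11 from 69095217 to 69109960, plus strand) is the period gene best known for a quick response to outside signals such as glucocorticoids. It varied 9.2-fold within Sham Chow alone, where mice 1 to 5 stood at 5.26, 17.4, 22.5, 48.4 and 28.9 CPM. The range was 19.0 to 47.5 CPM in RYGB Chow (median 21.0), 6.84 to 24.6 in Sham HFD (median 13.0) and 7.16 to 31.4 in RYGB HFD (median 18.6). These ranges overlap in every contrast. Sham HFD vs. Sham Chow gave the widest difference, -0.76 on the log2 scale with a 95% interval from -1.73 to 0.21 (adjusted p = 0.252).

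*Per2* (ENSMUSG00000055866, chromosome 1 from 91415982 to 91459324, minus strand), a period gene needed for a lasting rhythm, stood at 13.4, 14.2, 15.0, 31.9 and 20.8 CPM in Sham Chow mice 1 to 5 and at 24.8, 17.0, 13.9, 21.3 and 16.1 in RYGB Chow. In Sham HFD the values were 34.5, 26.6, 21.1, 19.8 and 23.0 CPM, and in RYGB HFD 38.6, 37.8, 35.7, 24.2 and 13.6. RYGB HFD mice 1 to 3 lay above all mice of both chow groups, and RYGB HFD mouse 5 lay below all RYGB Chow mice. The RYGB HFD vs. RYGB Chow difference was 0.69 on the log2 scale (standard error 0.26, 95% interval 0.14 to 1.24, adjusted p = 0.156), from 18.6 ± 4.37 to 30.0 ± 10.9 CPM (n = 5 each). It did not pass, but without RYGB HFD mouse 5 it was 0.87 (adjusted p = 0.0423).

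*Per3* (ENSMUSG00000028957, chromosome 4 from 151003652 to 151044665, minus strand) encodes a period protein with strong daily rhythm in peripheral organs. Its Sham Chow values were 11.9, 12.7, 18.4, 62.2 and 31.6 CPM in mice 1 to 5, and its RYGB Chow values 30.3, 16.3, 24.0, 25.1 and 19.4. Sham HFD mice gave 48.4, 34.9, 29.5, 20.4 and 34.1 CPM, and RYGB HFD mice 47.8, 59.0, 50.9, 23.7 and 7.58. Sham Chow holds the highest mouse and RYGB HFD the lowest, and the groups overlap in all contrasts. The widest difference, RYGB HFD vs. RYGB Chow, was 0.72 on the log2 scale (95% interval -0.20 to 1.64, adjusted p = 0.406).

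*Cry1* (ENSMUSG00000020038, chromosome 10 from 85131700 to 85185064, minus strand) encodes the cryptochrome that represses CLOCK and BMAL1 late in the cycle. Its values were 10.5, 6.05, 8.00, 6.50 and 8.79 CPM in Sham Chow and 6.73, 4.16, 6.76, 5.57 and 5.09 in Sham HFD. The mean was 7.97 ± 1.81 in Sham Chow and 5.66 ± 1.11 in Sham HFD (n = 5 each), and 2 Sham Chow mice lay within the Sham HFD range. The difference was -0.50 on the log2 scale (standard error 0.21, 95% interval -0.95 to -0.05), which did not pass over all genes (adjusted p = 0.101). RYGB HFD vs. RYGB Chow gave -0.41 (adjusted p = 0.312), from 8.69 ± 2.06 to 6.55 ± 2.14 CPM.

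*Nr1d1* (ENSMUSG00000020889, chromosome 11 from 98767932 to 98775333, minus strand) encodes REV-ERBα, a heme-binding repressor that ties the clock to lipid and glucose metabolism. It stood at 155, 133, 126, 182 and 141 CPM in RYGB HFD mice 1 to 5, and at 89.2, 115, 115, 119 and 112 in Sham HFD. Every RYGB HFD mouse lay above every Sham HFD mouse. The means were 148 ± 22.1 and 110 ± 11.8 CPM (n = 5 each), a difference of 0.42 on the log2 scale (standard error 0.14, 95% interval 0.14 to 0.71, adjusted p = 0.0376, exact permutation p = 0.00794 before adjustment, the smallest that 5 against 5 can give). The exact test was run on 40 pairs of gene and contrast, and this one did not pass after adjustment over them.

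The means of the chow groups lay between those of Sham HFD and RYGB HFD, at 123 ± 14.1 CPM in Sham Chow and 137 ± 33.7 in RYGB Chow. Their mice did not all lie between. They stood at 119, 127, 144, 107 and 117 CPM in Sham Chow and 119, 188, 116, 108 and 155 in RYGB Chow. RYGB Chow mouse 2 was above every RYGB HFD mouse. The surgery difference on chow was 0.16 (adjusted p = 0.72). Whether the surgery difference depended on diet was tested as an interaction, which gave 0.26 (standard error 0.19, adjusted p = 0.471), so the result on HFD is not shown to differ from that on chow. Of 28 alternatives, those leaving out a chow mouse, outside this contrast, left the *Nr1d1* difference at 0.42 and its call in place. The *Nr1d1* call passed in 19 of the 28. It was lost, among others, with library size scaling only (0.33, adjusted p = 0.0835) and without 1 mouse in several cases: without Sham HFD mouse 1 (0.35, adjusted p = 0.103), mouse 2 (0.0568), mouse 3 (0.0611) or mouse 5 (0.0635), and without RYGB HFD mouse 1 (0.0691), mouse 4 (0.34, adjusted p = 0.115) or mouse 5 (0.0531). The summed hepatocyte markers also did not overlap in this contrast, at 94600 to 114000 CPM in RYGB HFD and 66700 to 79700 in Sham HFD, and the stellate cell markers summed to 169 to 264 and 241 to 282 CPM. Their part in the *Nr1d1* difference was not tested. On the opposite strand, *Thra*, a thyroid hormone receptor gene, shares 263 exon bases (8.55% of those of *Nr1d1*), and the strand setting of the counting is not given in the sources used here. *Thra* itself averaged 17.4 CPM and differed by 0.01 on the log2 scale in the same contrast (adjusted p = 0.945).

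*Nr1d2* (ENSMUSG00000021775, chromosome 14 from 18204054 to 18239127, minus strand), the gene of the related repressor REV-ERBβ, was the steadiest member. It stood at 127, 137, 139, 129 and 100 CPM in RYGB HFD and at 121, 102, 109, 110 and 111 in Sham HFD, and spanned 100 to 143 CPM over all 20 mice. RYGB HFD mice 1 to 4 were above all Sham HFD mice, and mouse 5 was below them. RYGB HFD vs. Sham HFD gave 0.19 on the log2 scale (standard error 0.09, adjusted p = 0.138). Without RYGB HFD mouse 5 it was 0.27 and passed (adjusted p = 0.0288).

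*Dbp* (ENSMUSG00000059824, chromosome 7 from 45705088 to 45710203, plus strand) encodes a transcription factor through which the clock drives many liver enzymes. Its values were 75.1, 76.3, 115, 216 and 157 CPM in Sham Chow mice 1 to 5, and 107, 117, 103, 145 and 121 in RYGB Chow. In Sham HFD they were 134, 133, 109, 96.4 and 122 CPM, and in RYGB HFD 172, 204, 150, 134 and 46.3. The group means lay within 118 and 141 CPM. None of the contrasts passed, the lowest adjusted p being 0.605 in RYGB HFD vs. Sham HFD. *Sphk2*, on the opposite strand, shares 539 exon bases with *Dbp*, which is 18% of the exon bases of *Dbp*. *Sphk2* averaged 60.1 CPM, and in RYGB HFD vs. Sham HFD it differed by 0.03 on the log2 scale (adjusted p = 0.925).

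In RYGB HFD vs. Sham HFD, 16.4% of all tested genes were called (8.54% higher), and 1 of the 9 tested members was (*Nr1d1*, higher), while 2 had an unadjusted p under 0.05 (*Nr1d1* and *Nr1d2*), as 30.7% of all genes did. All 9 differences were above 0 there, with a median of 0.27 on the log2 scale against 0.01 over all genes, but with limma-voom those of *Arntl* and *Per3* were below 0. In Sham HFD vs. Sham Chow, where 21.6% of all genes were called, 0 of 9 members were called by edgeR, DESeq2 or limma-voom, 1 had an unadjusted p under 0.05 (*Cry1*, edgeR, against 35.7% of all genes), and the median was -0.16 against -0.00 over all genes.

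RYGB HFD vs. RYGB Chow had 3.65% of all genes called and 0 of 9 members by any of the 3 tools, with 1 at an unadjusted p under 0.05 (*Per2*, edgeR, against 18.8% of all genes). RYGB Chow vs. Sham Chow had 0.057% of all genes called, 0 of 9 members by any tool, and 0 members at an unadjusted p under 0.05, against 10.8% of all genes. For the surgery by diet interaction, 5.06% of genes and 0 of 9 members were called, again with 0 at an unadjusted p under 0.05 (20.8% of all genes). All 9 interaction values were above 0, with a median of 0.30 against 0.02 over all genes, but that of *Per3* was -0.14 with limma-voom and that of *Cry1* was -0.05 with library size scaling only. The groups failed to overlap for 1 of the 9 tested members (*Nr1d1* in RYGB HFD vs. Sham HFD), where 14.7% of all tested genes did not overlap. In the other 3 contrasts 0 of 9 were without overlap, against 16.5% of all genes in Sham HFD vs. Sham Chow, 5.05% in RYGB HFD vs. RYGB Chow and 1.33% in RYGB Chow vs. Sham Chow. These contrasts share groups, so their differences are not independent of each other.

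**Figure D2:**
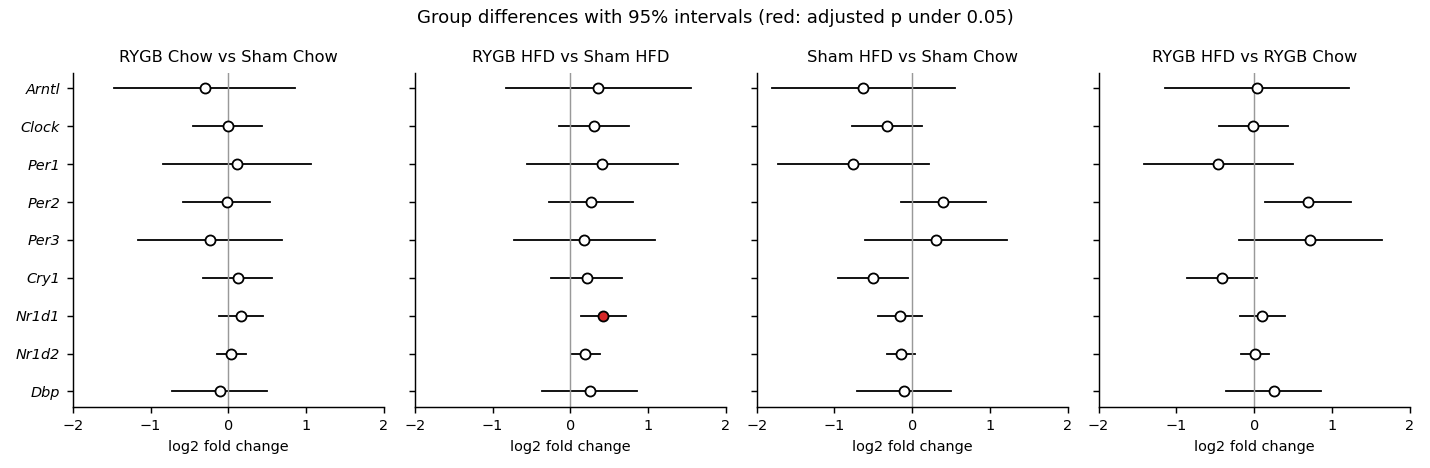
Log2 fold change (first group over second) of the 9 tested clock genes in the 4 contrasts, with 95% intervals from edgeR's quasi-likelihood fit of all 20 mice. *Nr1d1* in RYGB HFD vs. Sham HFD (0.42, 95% interval 0.14 to 0.71) is the filled point, the only one with an adjusted p under 0.05, and the intervals of *Arntl*, *Per1* and *Per3* are the widest.

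The wide intervals went with a wide spread among mice of the same group. The SD among mice of the same group, on log2(CPM + 0.5), was 0.89 for *Arntl*, and 0.667% of all tested genes had a larger one. *Per1* (0.85, with 0.822% of genes above it) and *Per3* (0.82, with 0.936% above it) were about as variable. *Dbp* had an SD of 0.55 (3.91% of genes above), *Per2* 0.46 (7.63%), *Clock* 0.38 (14.7%) and *Cry1* 0.33 (20.9%). *Nr1d1* had 0.23 (42.3%) and *Nr1d2* 0.14 (78.9%), on either side of the median of all tested genes, 0.20. The share of variance between groups, on the same scale, was 36.6% for *Nr1d1*, 36.5% for *Cry1*, 29.5% for *Per2* and 26.9% for *Nr1d2*, against a median of 32.5% over all tested genes. It was lower for the others, down to 0.866% for *Dbp*. Genes with few reads spread more on this scale. *Npas2*, which was not tested, had the fewest (16.8 counts per mouse on average), followed by *Arntl* (78.3), while *Per1* averaged 377 and *Per3* 562.

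**Figure D3:**
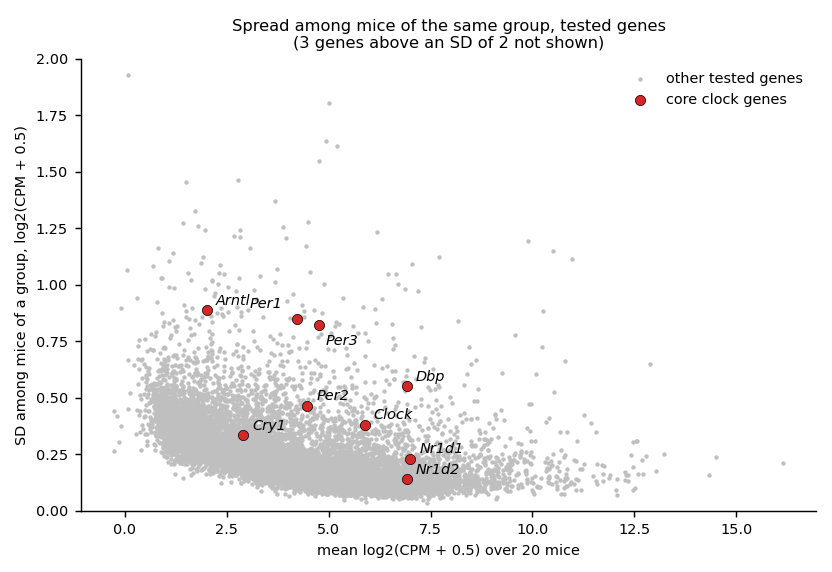
SD among mice of the same group against the mean level, both on log2(CPM + 0.5), for each tested gene (grey) and the 9 tested clock genes (red). *Arntl*, *Per1*, *Per3* and *Dbp* lie above most genes of their level, while *Nr1d1* and *Nr1d2* lie in the bulk, and 3 genes above an SD of 2 are not drawn.

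That spread was shared between some of the genes, as 9 correlations with *Arntl* showed, whose permutation p-values are given before adjustment. With the group means removed, *Npas2* followed *Arntl* over the 20 mice with Pearson r = 0.94 (Spearman rho = 0.93, permutation p = 1e-05, the smallest that 100000 permutations within groups can give). *Clock* followed it with r = 0.77 (rho = 0.77, permutation p = 0.00085). Both pairs remained past 0.05 without the 2 mice farthest from the *Arntl* median, RYGB HFD mice 5 and 1, at r = 0.89 (permutation p = 9e-05) and r = 0.69 (permutation p = 0.0063). The *Npas2* values rest on only 2 to 59 counts per mouse.

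*Per3*, *Dbp* and *Per2* ran against *Arntl*. Pearson r was -0.83 for *Per3* (rho = -0.85, permutation p = 0.0003), -0.78 for *Dbp* (rho = -0.77, permutation p = 0.00086) and -0.76 for *Per2* (rho = -0.67, permutation p = 0.00167). Without the 2 farthest mice these were -0.76, -0.66 and -0.61 (permutation p = 0.00186, 0.00983 and 0.0203). *Nr1d2* (r = -0.61, rho = -0.59, permutation p = 0.0165) and *Cry1* (r = 0.57, rho = 0.53, permutation p = 0.0268) were weaker, and both rested on the farthest mice, being -0.46 (permutation p = 0.063) and 0.45 (permutation p = 0.0964) without them.

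*Nr1d1*, a target of BMAL1 as *Dbp* is, did not share the sign of *Dbp*. Its r with *Arntl* was 0.46 (rho = 0.50, permutation p = 0.046, not past 0.05 after adjustment over the 9 correlations, and limma adjusted p = 0.42 over all genes in the fit described next), and 0.70 (permutation p = 0.00315) without the 2 farthest mice. *Per1* showed no relation that could be told from 0 (r = -0.04, rho = -0.04, permutation p = 0.878). Among the targets themselves, *Per2* and *Per3* (r = 0.94), *Per3* and *Dbp* (r = 0.93) and *Per2* and *Dbp* (r = 0.88) varied together over the 20 mice. Not all targets did so. With *Dbp*, r was 0.7 for *Nr1d2*, 0.15 for *Per1*, -0.17 for *Nr1d1* and -0.57 for *Cry1*. Between *Nr1d1* and *Nr1d2* it was -0.47. *Clock* and *Dbp* ran against each other (r = -0.86). All these values share the same libraries and scaling.

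**Figure D4:**
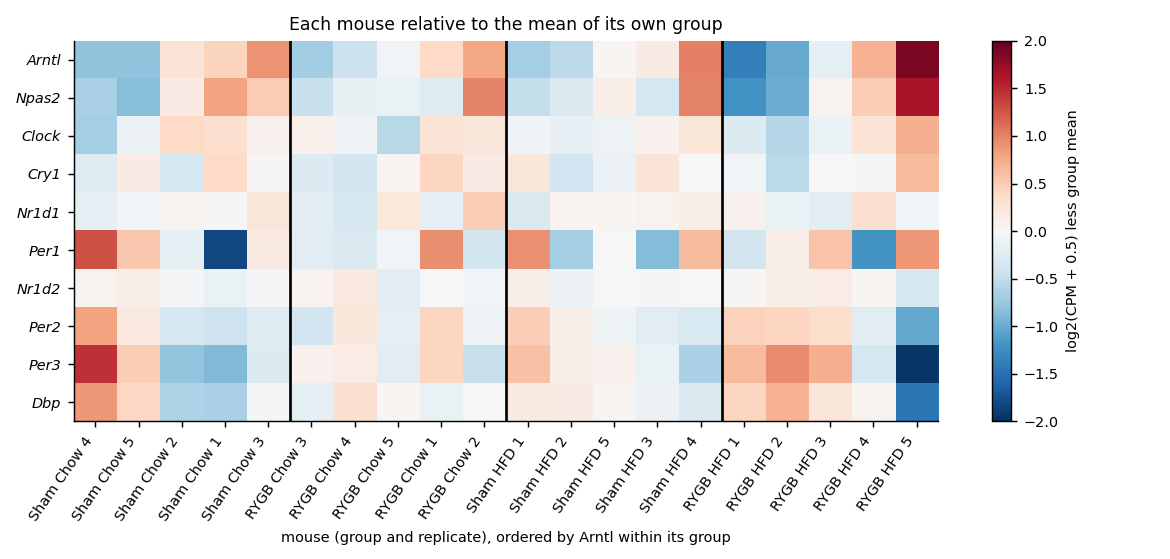
Level of each clock gene in each mouse less the mean of its own group, on log2(CPM + 0.5), with mice ordered by *Arntl* within each group. In Sham Chow, Sham HFD and RYGB HFD, mice to the right (high *Arntl*) tend to have high *Npas2* and *Clock* and low *Per2*, *Per3* and *Dbp*, most of all RYGB HFD mouse 5, while in RYGB Chow mouse 1 has the group's highest *Per2* and *Per3* beside high *Arntl*, and mouse 3 its lowest *Arntl*, *Per2* and *Dbp*.

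A fit across all genes gives the background for these relations. In limma, with group and *Arntl* as terms and adjustment over 12288 genes, 0.48% of genes had a positive and 0.269% a negative slope on *Arntl* at an adjusted p under 0.05. Of the 8 other tested members, 7 had an unadjusted p under 0.05 (11.3% of all genes did), 1 was positive (*Clock*, adjusted p = 0.0156) and 3 were negative (*Per3*, 0.00202, *Dbp*, 0.00948, and *Per2*, 0.018). By r, *Per3* ranked 5th, *Dbp* 14th and *Per2* 32nd from the negative end of all tested genes. The fit depended on RYGB HFD mouse 5: without it, 0 of 8 members passed by limma (*Per3*, adjusted p = 0.0977) and 5 had an unadjusted p under 0.05 (6.48% of all genes), and 16 of all genes passed, while r over the other mice stayed at 0.91 for *Npas2*, 0.67 for *Clock*, -0.73 for *Per3*, -0.64 for *Dbp* and -0.61 for *Per2*, with permutation p between 4e-05 and 0.0114. Without RYGB HFD mouse 2, 48 genes passed and *Clock* did not.

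**Figure D5:**
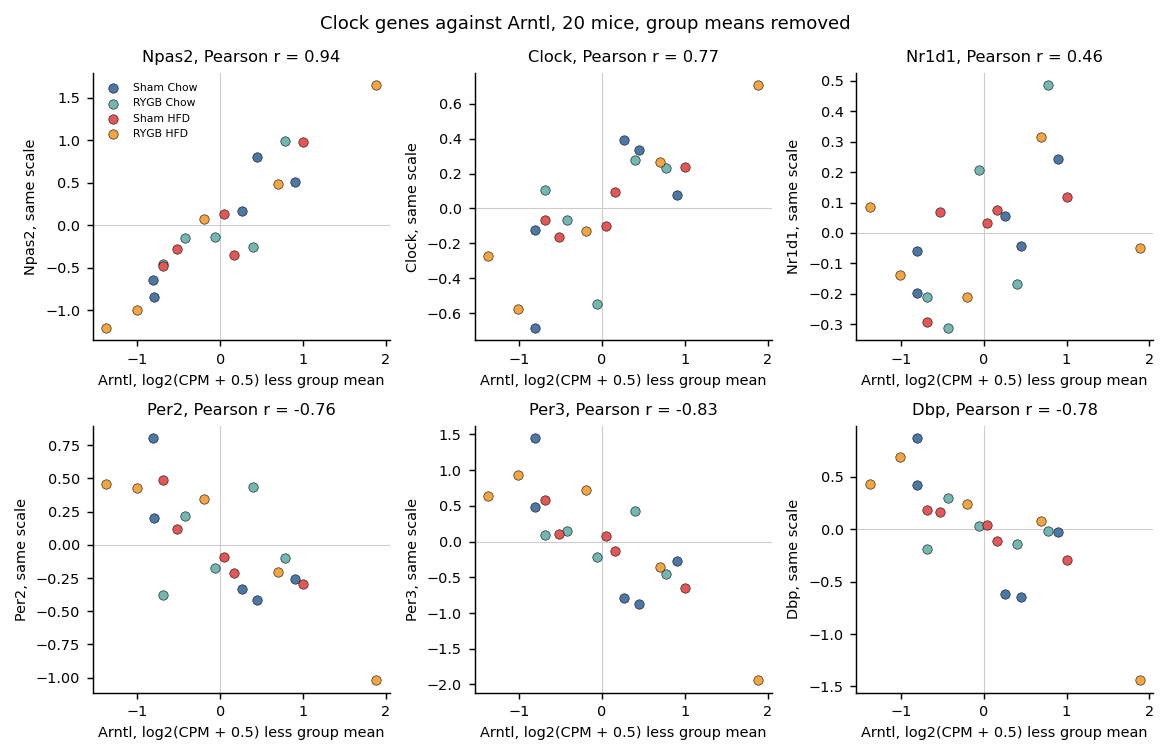
Each of 6 clock genes against *Arntl* over 20 mice, both on log2(CPM + 0.5) less the group mean, coloured by group. *Npas2* (r = 0.94) and *Clock* (r = 0.77) rise with *Arntl*, *Per2* (r = -0.76), *Per3* (r = -0.83) and *Dbp* (r = -0.78) fall, *Nr1d1* (r = 0.46) is loose, and RYGB HFD mouse 5 is the point farthest to the right.

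The ratio of *Dbp* to *Arntl*, a pair known for opposite phases, was computed for each mouse. In Sham Chow it was 11.9, 13.9 and 13.0 in mice 1 to 3 and 91.7 and 66.6 in mice 4 and 5. In RYGB HFD it was 210 and 171 in mice 1 and 2, 60.4 in mouse 3, 26.6 in mouse 4 and 3.83 in mouse 5, a span of 54.8-fold that includes both the highest and the lowest of all 20 mice. Without mouse 5 the RYGB HFD span was 7.89-fold, against 7.71-fold in Sham Chow. RYGB Chow was the most even group, from 16.8 to 53.0 (3.15-fold), and Sham HFD ran from 14.8 to 79.9 (5.4-fold).

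Some measures of the libraries were set beside *Arntl* in the same way. Total counts (r = 0.04, rho = 0.09, permutation p = 0.868) and the scaling factor (r = -0.22, rho = -0.19, permutation p = 0.269) did not follow it beyond their spread. Of 8 summed marker lists, the stellate cell list (4 of 4 markers tested) had the highest r with *Arntl*, 0.55 (rho = 0.53, permutation p = 0.0398, 0.254 after Benjamini-Hochberg adjustment over the 10 measures), and its part in the *Arntl* pattern was not tested. The cholangiocyte list (1 of 4 markers tested) came next with r = 0.46 (rho = 0.50, permutation p = 0.0509, 0.254 after the same adjustment). The hepatocyte list gave r = 0.26 (rho = 0.23, permutation p = 0.185).

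The promoters of the members were searched for DNA words that clock factors bind. RefSeq windows (GRCm38.p6) running from 250 bases before to 50 after a transcript start were found for 9 of the 10 members, 13 windows in all, with *Per2* not among them. Searched on both strands were the E-box CACGTG and E-prime box CACGTT, which BMAL1 and CLOCK bind, the D-box in the forms TTATGTAA and TTACGTAA, which DBP binds, and the RORE core in the forms TAGGTCA and TGGGTCA, which REV-ERB proteins bind. No match overlapped another, and 5 members held at least 1. The E-box was found in 2 of the 9 members, the E-prime box in 2, the D-box in 1 and the RORE core in 1. Of all genes with a window, 8.09% held the E-box, 5.44% the E-prime box, 1.23% the D-box and 7.35% the RORE core. The share of all genes with any of these words was not computed. A match describes the letters and is not a measured binding site.

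*Per3* held 2 D-boxes beginning 205 and 158 bases before its start, a word found in 1.06% of all 32851 windows. *Cry1* held an E-box beginning 60 bases and an E-prime box beginning 79 bases before its start. The 250 bases before the start of each (chr4:151044666-151044915 and chr10:85185055-85185304, both minus strand) are shown with the matches in capitals, since they hold more than 1 match each.
Per3: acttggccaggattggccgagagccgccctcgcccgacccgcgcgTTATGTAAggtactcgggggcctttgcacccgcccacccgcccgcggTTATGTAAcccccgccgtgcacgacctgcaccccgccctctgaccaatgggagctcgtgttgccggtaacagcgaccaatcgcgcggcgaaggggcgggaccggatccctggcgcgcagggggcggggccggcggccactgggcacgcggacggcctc
Cry1: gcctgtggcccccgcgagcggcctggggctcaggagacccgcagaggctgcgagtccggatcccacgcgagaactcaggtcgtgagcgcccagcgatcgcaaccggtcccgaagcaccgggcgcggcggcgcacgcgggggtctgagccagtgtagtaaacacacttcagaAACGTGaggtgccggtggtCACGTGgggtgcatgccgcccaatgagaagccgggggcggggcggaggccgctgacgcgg

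The other 3 members with a match are shown by 30 bases around it, again with the match in capitals: the RORE core of *Arntl*, beginning at base 31 of a RefSeq transcript (chr7:113207529-113207558, plus strand), the E-box of *Per1* 166 bases before a start (chr11:69098771-69098800, plus strand), and the E-prime box of *Nr1d1*, written as its reverse complement, 28 bases before the start (chr11:98775388-98775417, minus strand).
Arntl: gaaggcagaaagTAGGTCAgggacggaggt
Per1: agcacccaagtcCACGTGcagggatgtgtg
Nr1d1: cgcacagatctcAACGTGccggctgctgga
Of all windows, 6.45% hold the RORE core, 7.15% the E-box and 4.68% the E-prime box. *Dbp*, *Nr1d2*, *Clock* and *Npas2* hold none of the 4 motifs in their windows, which says only that these letters are absent there.

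Beyond the 10 members, 19 of 21 other clock genes were tested. Of these, 2 were higher in Sham HFD than in Sham Chow: *Fbxl21*, which encodes an F-box protein that acts on cryptochromes, rose from 3.91 ± 1.27 to 9.41 ± 1.82 CPM (n = 5 each, log2 fold change 1.26, adjusted p = 0.000149), and *Btrc*, whose F-box protein marks period proteins for breakdown, from 16.9 ± 2.26 to 20.5 ± 2.02 (0.28, adjusted p = 0.0314). The same pair passed in RYGB HFD vs. RYGB Chow (*Fbxl21*, 0.87, adjusted p = 0.0171, and *Btrc*, 0.44, adjusted p = 0.01). In both diet contrasts 10.5% of the list was called, against 21.6% and 3.65% of all genes. Both proteins act on the stability of clock proteins. The list's median was 0.05 on the log2 scale in each diet contrast, against -0.00 and 0.00 over all genes. In RYGB HFD vs. Sham HFD 0 of 19 passed by edgeR and limma-voom and 1 by DESeq2, with 4 at an unadjusted p under 0.05 in edgeR. In RYGB Chow vs. Sham Chow and in the interaction 0 passed by any of the 3 tools, with 2 and 0 at an unadjusted p under 0.05 in edgeR.

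Within groups, 1 of these 19 passed the limma fit on *Arntl*: *Tef*, a relative of *Dbp*, ran against *Arntl* (r = -0.83, adjusted p = 0.00417, and 0.09 without RYGB HFD mouse 5). By permutation, with adjustment over the 57 genes of the 4 lists, 3 of 19 passed: *Tef*, *Csnk1d*, the gene of a kinase of period proteins (r = 0.74, adjusted p = 0.0225, limma adjusted p = 0.206), and *Usp2*, a ubiquitin protease gene (r = -0.63, adjusted p = 0.016, limma adjusted p = 0.117).

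Among 15 clock-controlled liver outputs, 3 passed in RYGB HFD vs. Sham HFD by edgeR and by DESeq2, and 2 by limma-voom. *Avpr1a*, a vasopressin receptor gene, was higher (8.50 ± 2.58 to 37.7 ± 10.8 CPM, log2 fold change 2.15, adjusted p = 8.78e-06). *Elovl3*, a fatty acid elongase gene, was also higher (71.1 ± 12.6 to 186 ± 173, 1.38, adjusted p = 0.0211), and *Cyp2a4*, a steroid hydroxylase gene whose reads can be shared with its close paralog *Cyp2a5*, was lower (22.2 ± 10.4 to 0.406 ± 0.379, -5.70, adjusted p = 4.62e-05). That is 20% of the list, against 16.4% of all genes, with a median of 0.15 on the log2 scale against 0.01. In Sham HFD vs. Sham Chow 1 was higher and 4 were lower (33.3%, against 21.6%), led by *Cyp2a4* (5.34, adjusted p = 6.02e-05), *Avpr1a* (-1.14, adjusted p = 0.00241) and *Elovl3* (-1.91, adjusted p = 0.00249). RYGB HFD vs. RYGB Chow had 2 lower (*Cyp2a4*, -3.30, adjusted p = 0.0245, and *Cyp2a5*, -1.19, adjusted p = 0.0487), though 0 passed by limma-voom. That is 13.3% of the list by edgeR, against 3.65% of all genes. The interaction called *Cyp2a4* (-8.64, adjusted p = 0.000159) and *Avpr1a* (1.65, adjusted p = 0.00743), 13.3% of the list against 5.06% of all genes. RYGB Chow vs. Sham Chow called 0 by any of the 3 tools, with 2 at an unadjusted p under 0.05.

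Of the 15 outputs, 5 passed the limma fit on *Arntl*. A positive slope was found for 2 of them, namely *Insig2*, which holds back cholesterol synthesis (r = 0.87, adjusted p = 0.000611), and *Elovl3* (r = 0.85, adjusted p = 0.0013). A further 3 had a negative slope: *Gys2*, liver glycogen synthase (r = -0.85, adjusted p = 0.00284), *Wee1*, a cell cycle kinase (r = -0.81, adjusted p = 0.00417), and *Nampt*, of NAD synthesis (r = -0.71, adjusted p = 0.0463). Without RYGB HFD mouse 5, only *Insig2* passed (adjusted p = 0.0257). By permutation, adjusted over the 57 list genes, the same 5 passed together with *Avpr1a* (r = 0.70, adjusted p = 0.016). *Elovl3* thus differed both between groups (by edgeR) and, with *Arntl*, within them, and its SD of 173 CPM in RYGB HFD was close to its mean there.

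Of 15 fasting and glucocorticoid genes and 8 temperature-linked rhythmic genes, 0 passed the limma fit (3 and 0 at an unadjusted p under 0.05), with r from -0.62 (*Sik1*) to 0.46 in the first list and from -0.35 to 0.39 in the second. By permutation, adjusted over the 57 list genes, *Sik1*, a kinase gene, was past 0.05 (adjusted p = 0.0348, r = -0.56 without the 2 farthest mice), against a limma adjusted p of 0.17, and 0 of the 8 temperature-linked genes were. Between groups some did differ. In RYGB HFD vs. Sham HFD, *Pdk4*, a kinase gene raised by fasting, was lower (22.2 ± 7.0 to 6.04 ± 3.72 CPM, log2 fold change -1.89, adjusted p = 0.00655), the only 1 of the 15 (6.67%), and 3 of the 8 temperature-linked genes passed (37.5%), against 16.4% of all genes: *Hspb1* (-1.58, adjusted p = 0.00114) and *Hsp90aa1* (-0.58, adjusted p = 0.0193) were lower and *Hspa8* (0.54, adjusted p = 0.0012) was higher. These 3 encode heat shock proteins, whose genes also respond to stress.

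Sham HFD vs. Sham Chow called 2 fasting genes higher and 2 lower (26.7%), led by *Angptl4* (-0.73, adjusted p = 0.00182), *Pck1*, of glucose synthesis (-1.11, adjusted p = 0.0134), and *Pdk4* (1.52, adjusted p = 0.0191). It also called *Hspa8* (-0.39, adjusted p = 0.0109) and *Hspb1* (1.00, adjusted p = 0.0206), 25% of the temperature-linked list, where 21.6% of all genes were called. RYGB HFD vs. RYGB Chow called *G6pc*, the last step of glucose release (-1.05, adjusted p = 0.0256), 6.67% of its list against 3.65% of all genes. It called 0 of 8 temperature-linked genes by any of the 3 tools, with 1 at an unadjusted p under 0.05 in edgeR. The interaction called *Pdk4* (-2.23, adjusted p = 0.0458) and *Hspa8* (0.51, adjusted p = 0.0485). These are 6.67% and 12.5% of their lists, against 5.06% of all genes. Of the temperature-linked list, DESeq2 called 2 in the interaction and limma-voom 0. RYGB Chow vs. Sham Chow called 0 of either list by any tool, with 1 fasting gene and 0 temperature-linked genes at an unadjusted p under 0.05.

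The 10 members were left out of a ranking of all tested genes by Pearson r with *Arntl*, with group means removed. The genes most like *Arntl* over the 20 mice were then *Clpx* (r = 0.93), *Gldc* (0.92), *Chka* (0.92), *Tab2* (0.91) and *Asap2* (0.89). Among those most opposed were *Gys2* (r = -0.85), *Slc16a12* (-0.84), *Ltbr* (-0.84) and *Tef* (-0.83). Of the genes named in these sentences, only *Gys2* and *Tef* were on a list used here. These are descriptions over 20 mice of libraries shared by all genes.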

How the data were processed

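Liver RNA of 20 mice was sequenced as stranded poly-A libraries. Per the labels and the study's methods, the authors trimmed reads with Trimmomatic 0.36, aligned them to mm10 with HISAT2 2.1.0 and counted them per gene with featureCounts 1.5.0-p3, and the deposited values are raw counts. The annotation release, the strand setting and the handling of multi-mapping reads are not given in the sources used here. Symbols, positions and exon lengths came from GENCODE M21, and 54495 of 54532 genes had a symbol. Every column was used, and 0 were identical to another.

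Genes with at least 2 CPM in at least 3 mice were tested with edgeR 4.0.16 (quasi-likelihood, TMM, 1 model of 4 groups, two-sided, in R 4.3.3), and the study's own tool, DESeq2 1.42.0, was an alternative beside limma 3.58.1 (voom), RLE factors, library size only, other filters, 2-group models, a replicate block and leaving out each mouse. For each of 40 pairs of member and contrast, log2(CPM + 0.5) was also compared with an exact permutation test (252 ways to divide 10 mice evenly). Correlations with *Arntl* used values less their group mean and 100000 permutations within groups. The limma fit on *Arntl* across all genes, with its alternatives, was added after seeing the data. The labels give no batch. Procedures were tested on simulated data. Genes named beside the members are the 3 with the smallest adjusted p of each list in a contrast, those of a list that passed the fit on *Arntl*, those of a list past the permutation test against *Arntl* (named after their values were seen), and the 5 most like and 5 most unlike *Arntl*, of which 1 is not reported here. *Thra* and *Sphk2* were named because they overlap a member. The members and lists were chosen with earlier results of these data known. Counts are reads without molecular identifiers, so counting error is a lower limit of the error. Figures used Python 3.11.15 and matplotlib 3.10.9.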

Additional observations from a re-analysis of the deposited data

Results flagged for a closer look

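Among the 40 groups of 5 mice (10 genes in 4 groups), 3 held a mouse set apart from the rest of its group by Dixon's test for an outlying value, which is 7.5%, and chance alone sets apart about 1 in 20 groups. *Npas2* in RYGB Chow mouse 2 stood at 1.45 CPM, with the other mice of the group between 0.22 and 0.396. That mouse also had the highest *Arntl* of its group (6.95 CPM). *Per1* in RYGB Chow mouse 1 stood at 47.5 CPM, with the others between 19.0 and 23.7. *Nr1d1* in Sham HFD mouse 1 stood at 89.2 CPM, with the others between 112 and 119, and the *Nr1d1* difference between RYGB HFD and Sham HFD was 0.35 on the log2 scale without it (edgeR, adjusted p = 0.103). RYGB HFD mouse 5, on which several correlations depend, was not set apart by the same test for any of the 10 genes.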

How the results depend on the processing

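Without each mouse in turn, members called ran from 0 to 1 in RYGB HFD vs. Sham HFD and in RYGB HFD vs. RYGB Chow. With library size only or with the replicate block, 0 were called in the former. The sources used here do not say what the replicate numbers mean, such as pairs or an order of collection. Over all tested genes, deviations of same-numbered mice correlated between -0.26 and 0.17. In RYGB HFD, *Arntl* rose with each replicate number, from 0.816 CPM in mouse 1 to 12.1 in mouse 5, while in the other groups it did not rise throughout. With the block the *Nr1d1* difference was 0.43 (edgeR, adjusted p = 0.051). *Nr1d1* passed in 19 of 28 alternatives (adjusted p from 0.0134 to 0.115), which include leaving out each chow mouse, outside that contrast. Members without overlap numbered 0 with library size only and 1 to 2 without 1 mouse in RYGB HFD vs. Sham HFD, and 0 to 1 in RYGB HFD vs. RYGB Chow. The cause of these shifts was not tested.

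Genes called in RYGB Chow vs. Sham Chow (7) were 92 with DESeq2, 3 with limma-voom, 13 without a filter, 0 in a model of the 2 groups and 0 to 15 without 1 mouse. In RYGB HFD vs. RYGB Chow (448) they were 751 with DESeq2, 190 in a model of the 2 groups and 244 to 488 without 1 mouse, and in the interaction (622) 377 to 805. Library size scaling moved the median of all genes by 0.127 in Sham HFD vs. Sham Chow and by -0.141 in the interaction. Genes following *Arntl* (92) ran from 16, without RYGB HFD mouse 5, to 128, with members of positive slope from 0 to 1 and of negative slope from 0 to 3.

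Without 1 mouse, r with *Arntl* ran from 0.40 to 0.61 for *Nr1d1* (0.46 with CPM + 2), 0.38 to 0.65 for *Cry1*, -0.69 to -0.36 for *Nr1d2* and -0.27 to 0.07 for *Per1*.

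Differences near 0 changed sign. In RYGB Chow vs. Sham Chow, library size only gave 0.04 for *Clock* and 0.02 for *Per2*, limma-voom gave 0.00 for *Clock*, 0.07 for *Per2*, 0.09 for *Per3* and 0.00 for *Dbp*, and leaving out 1 mouse gave -0.15 to 0.10 for *Clock*, -0.22 to 0.50 for *Per1*, -0.15 to 0.24 for *Per2*, -0.43 to 0.31 for *Per3*, -0.01 to 0.24 for *Cry1*, -0.01 to 0.10 for *Nr1d2* and -0.25 to 0.16 for *Dbp*. In RYGB HFD vs. Sham HFD, limma-voom gave -0.20 for *Arntl* and -0.05 for *Per3*, and leaving out 1 mouse -0.49 to 0.74 and -0.05 to 0.44. For *Dbp* in Sham HFD vs. Sham Chow the values were 0.03 (library size only), 0.00 (limma-voom) and -0.25 to 0.16. In RYGB HFD vs. RYGB Chow, *Arntl* was -0.56 with limma-voom, -0.20 with the block and -0.81 to 0.31 without 1 mouse, *Clock* -0.22 to 0.12, and *Nr1d2* -0.01 with library size only, -0.00 without a filter and -0.04 to 0.08 without 1 mouse. In the interaction, leaving out 1 mouse gave -0.19 to 1.04 for *Arntl*, -0.10 to 0.62 for *Per1*, -0.13 to 0.67 for *Per3* (-0.14 with limma-voom) and -0.12 to 0.21 for *Cry1* (-0.05 with library size only).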
